A study of Mus musculus with 4 samples.

Results

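The integrated stress response genes examined here were the 4 kinases that phosphorylate eIF2α (Eif2ak1, Eif2ak2, Eif2ak3 and Eif2ak4), the 2 regulatory subunits of the phosphatase that reverses this (Ppp1r15a and Ppp1r15b), the transcription factor genes Atf4 and Ddit3, and their targets Asns and Trib3. These 10 genes were chosen by symbol. They matched 11 of the 55573 rows of the deposited table, because Ddit3 is listed there as 2 gene models. All 10 symbols, by 1 row each, passed the filter of a mean level of at least 1 RPKM (footprint reads per kilobase of exon length after scaling between libraries) that 11363 genes passed.

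The measurements were Ribo-seq libraries, in which the mRNA fragments covered by ribosomes (footprints) are sequenced, from primary myoblasts of the mouse, which grow out of muscle stem cells in culture. The labels gave 2 WT libraries and 2 libraries of the genotype eIF5A-KO, all from hind-limb muscle of 3-week-old mice and all in proliferation at day 2 with FGF. The comparison addresses how loss of eIF5A, a translation factor that helps ribosomes elongate through difficult stretches such as runs of prolines, changes ribosome occupancy. In the study's mice a tamoxifen-inducible Cre under the Pax7 gene (Pax7 CreERT2/+; eIF5A f/f) deletes the floxed eIF5A gene in Pax7-expressing cells only, so other cells of the muscle that enter the culture keep it. The WT controls were littermates, given in one place of the study's text as Pax7 CreERT2/+ and in another as carrying the floxed allele without Cre. All 4 libraries were treated with cycloheximide, an elongation inhibitor, for a time stated as 1 min in the study's methods and as 10 min in the sample labels. The study calls the Ribo-seq experiments duplicates without stating whether the 2 replicates of a group came from separate animals or cultures. The p-values therefore measure the spread between these libraries, whatever its source, and that spread may be technical.

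The integrated stress response lowers protein synthesis when cells lack amino acids, misfold protein, lack heme or hold double-stranded RNA. Its kinases phosphorylate the α subunit of eIF2, the factor that brings the initiator tRNA to the ribosome, and initiation on most mRNAs then falls while a few mRNAs with upstream start codons, Atf4 among them, are translated more. ATF4 turns on genes of amino acid synthesis and transport, CHOP (the product of Ddit3) and PPP1R15A, which closes the loop by removing the phosphate. In resting muscle stem cells, phosphorylated eIF2α is known to help keep the cells quiescent.

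The libraries labelled KO were not set apart by the footprints of the targeted gene. Eif5a was at 34.9 and 65.2 RPKM (50 and 73 reads) in WT replicates 1 and 2, and at 60.3 and 59.4 RPKM (130 and 114 reads) in the libraries labelled KO replicates 1 and 2. The groups overlapped, and the log2 difference, KO minus WT, was 0.32 ± 0.48 (SE, 95% interval -0.87 to 1.51, limma, Benjamini-Hochberg adjusted p = 0.839). Footprints over the whole gene do not show whether the floxed part was deleted, so the groups are called by their labels throughout. Gene-assigned reads numbered 642429 to 648386 in WT and 650210 to 704006 in the libraries labelled KO, and 33.9% to 41.5% and 59.2% to 65.4% of them lay in protein-coding genes. Mitochondrial rRNA took 30.1% to 39.1% of the WT reads and 15.0% to 18.5% of those labelled KO. The summed level of 7 myoblast markers was 191 to 236 RPKM in WT and 115 to 127 RPKM in the libraries labelled KO. Myod1 was the largest part, at 140 and 117 RPKM in WT and 48.6 and 79.8 RPKM in the libraries labelled KO. The study reports lower translation of this gene in eIF5A-KO cells. Myf5 was at 0 in KO replicate 2. Of the 7 markers, 4 were lower in the libraries labelled KO without overlap and 1 was higher, where 20.3% and 20.1% of all genes tested were. The summed level of 6 fibroblast markers was 250 to 444 RPKM in WT and 327 to 750 RPKM in the libraries labelled KO. Dcn was the largest part, at 240 and 126 RPKM in WT and 460 and 171 RPKM in the libraries labelled KO. The 4 endothelial markers summed to 95.1 to 102 RPKM and 106 to 131 RPKM. Of the fibroblast and endothelial markers, 2 of the 6 and 3 of the 4 were higher in the libraries labelled KO without overlap, against the same 20.1% of all genes, and none was lower. The 5 immune markers summed to 17.1 to 25.6 RPKM and 20.3 to 20.8 RPKM, with Itgam at 0 in all libraries. Of these, 2 passed the filter: Cd68, most of the sum, was lower in the libraries labelled KO without overlap, and Adgre1 was higher without overlap, at 0.512 and 1.97 RPKM in WT against 4.43 and 4.21 RPKM. Csf1r had 1 and 0 reads in WT against 6 and 6. The part that these differences in read classes and in other cells play in the values below was not tested. In such bulk libraries, fewer cells of a type and less RNA per cell cannot be told apart, and a footprint level holds both the amount of an mRNA and its translation, since mRNA abundance was not analysed here.

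Start codons upstream of the coding sequence are shown first, because the deposited levels count footprints over the whole gene and so add any on upstream reading frames to those on the protein. In the longest coding transcript of each gene in GENCODE vM21, Ppp1r15a held 7 upstream start codons, Atf4, Eif2ak3 and Ppp1r15b held 3 each, Ddit3 held 2, Asns and Eif2ak2 held 1 each, and Eif2ak1, Eif2ak4 and Trib3 held none. Among transcripts of equal coding length the longest was taken. Which transcript these cells express was not examined, and the counts depend on it. The Atf4 leader, the part of the mRNA before the coding sequence, was 594 bases long. Its upstream frames began at bases 120, 399 and 498 of the transcript and had 36, 3 and 59 codons. The frame at base 498 ran 83 bases past the start of the ATF4 frame at base 595. In Ddit3 the upstream frames began at bases 56 and 65, shared a stop codon and had 34 and 31 codons, and the CHOP frame began at base 187. The starts are given below 5′ to 3′ on the mRNA strand (written as DNA), each with 6 bases before and 12 after, and the capitals mark the start codon.
Atf4, upstream start at base 120: tctctcATGgggcctttagga
Atf4, upstream start at base 399: gccaccATGgcgtattagagg
Atf4, upstream start at base 498: taagccATGgcgctcttcacg
Atf4, coding start at base 595: cacaacATGaccgagatgagc
Ddit3, upstream start at base 56: tatatcATGttgaagatgagc
Ddit3, upstream start at base 65: ttgaagATGagcgggtggcag
Ddit3, coding start at base 187: gcagtcATGgcagctgagtcc

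**Figure D1:**
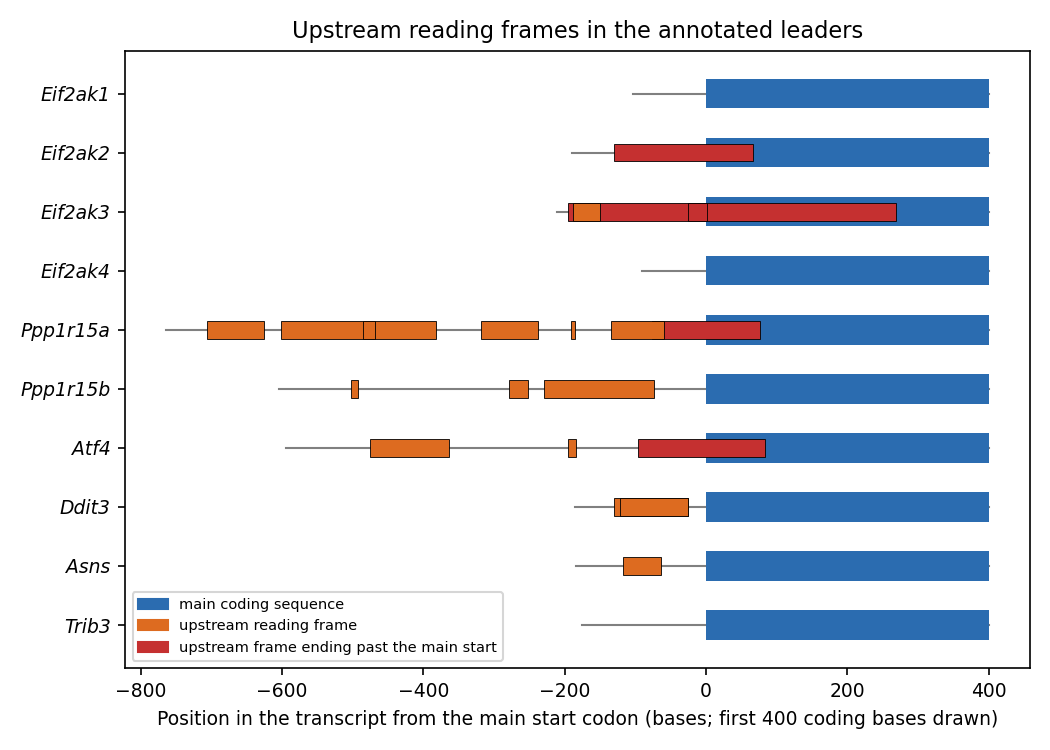
Upstream reading frames of the 10 genes in the longest coding transcript of GENCODE vM21, by position in bases from the main start codon; grey lines are the leader, blue bars the first 400 bases of the coding sequence, orange bars upstream frames that end before the main start and red bars those that end past it. Ppp1r15a has the most, 7, and the last frame of Atf4 crosses the main start by 83 bases.

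None of the 10 genes was called between the groups: 0 had an adjusted p-value under 0.05 (limma), where the lowest was 0.676 for Asns, and 0 had an unadjusted p-value under 0.05. Over all 11363 genes tested, 0.106% were called by the adjusted threshold (0.0088% higher and 0.0968% lower) and 7.32% passed the unadjusted threshold (2.86% higher and 4.46% lower). For 5 of the 10 genes every library of one group lay on the same side of the other group, with Atf4 and Asns higher in the libraries labelled KO and Eif2ak1, Eif2ak3 and Ppp1r15a lower. Of all genes tested 40.4% had groups that did not overlap, 20.1% higher and 20.3% lower, so 5 of 10 is near the background. The median log2 difference of the 10 genes was 0.10, against 0.00026 for all genes tested. With 2 libraries on each side the smallest p of an exact permutation test is 0.333, so the sizes and intervals below carry the comparison. With 2 libraries per group the intervals are wide, and a p-value above the threshold does not show that the levels were equal. The deposited values had been scaled so that the typical gene has the same level in each library, so each difference is relative to the typical gene. Scaled to the total of reads instead, the median of all genes moved by 0.47, and every value given below on that scale includes this shift.

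**Figure D2:**
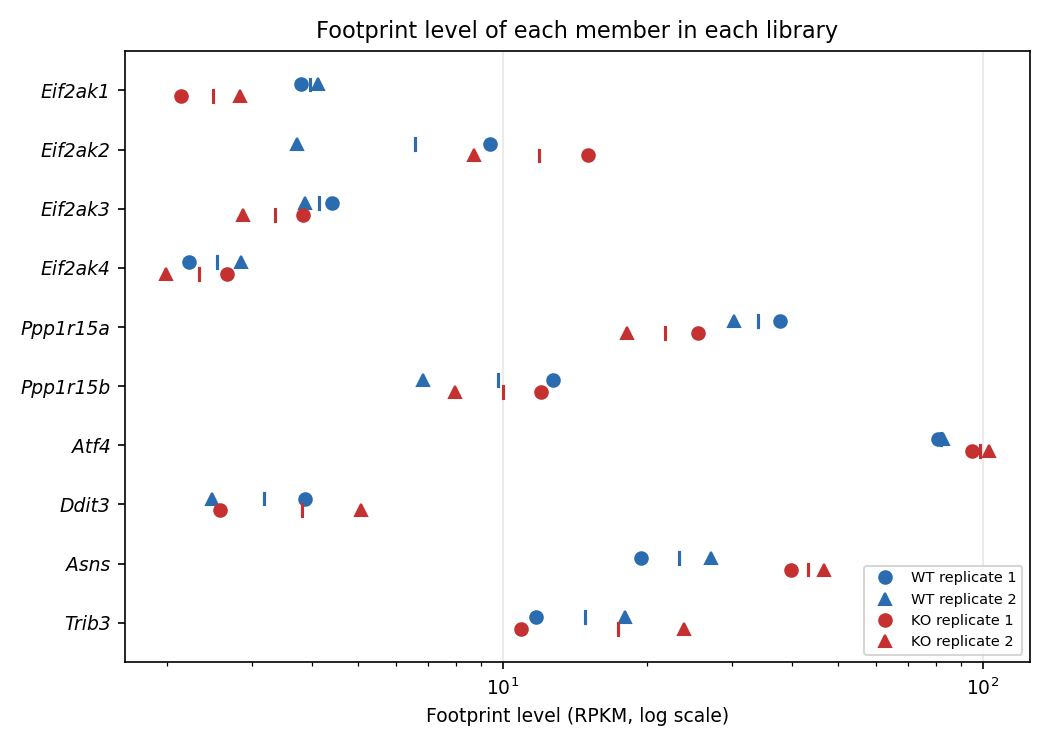
Footprint level of the 10 genes in each library, in RPKM on a log axis; blue symbols are WT, red symbols the libraries labelled KO, circles replicate 1, triangles replicate 2, and short vertical bars the group means. Atf4 lies highest in every library at 80.9 to 102.9 RPKM, the kinases other than Eif2ak2 lie between 1.99 and 4.40 RPKM, and the red and blue symbols separate without overlap for Asns, Atf4, Ppp1r15a, Eif2ak1 and Eif2ak3.

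The kinases other than Eif2ak2 carried few footprints, and the kinases did not share a direction. Eif2ak1 (ENSMUSG00000029613, chr5:143817788-143904251, plus strand, positions here and below in GRCm38) encodes HRI, the kinase that senses heme shortage and mitochondrial stress. It was at 3.80 and 4.12 RPKM in WT replicates 1 and 2 (13 and 11 reads) and at 2.14 and 2.84 RPKM in the libraries labelled KO replicates 1 and 2 (11 and 13 reads). Both WT libraries were above both libraries labelled KO, and the log2 difference was -0.51 ± 0.38 (SE, 95% interval -1.46 to 0.43, limma adjusted p = 0.711). The read numbers of the 4 libraries were alike. Scaled to the total of reads instead, the log2 difference was -0.051, where the median of all genes moved by 0.47. Exons of Eif2ak1 share 487 bases with Aimp2 on the other strand, which had 64 reads over the 4 libraries, and whether the counting used strand was not given in the sources used here.

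Eif2ak2 (ENSMUSG00000024079, chr17:78852564-78882573, minus strand) encodes PKR, the kinase that binds double-stranded RNA and is induced by interferon. It was the most abundant kinase by RPKM in 3 of the 4 libraries, at 9.41 and 3.74 RPKM in WT replicates 1 and 2 (29 and 9 reads) and at 15.1 and 8.72 RPKM in the libraries labelled KO replicates 1 and 2 (70 and 36 reads). The libraries of a group stood far apart, 2.52-fold in WT and 1.73-fold in KO, and WT replicate 1 was above KO replicate 2. The log2 difference was 0.83 ± 0.53 (SE, 95% interval -0.47 to 2.14, limma adjusted p = 0.697). It was 1.40 without WT replicate 1, 0.26 without WT replicate 2, 1.36 scaled to the total of reads and 0.53 with trends on GC content and coding length removed. Its share of the summed RPKM of the 4 kinases was 47.4% and 25.6% in WT, against 63.6% and 53.1% in the libraries labelled KO. The groups did not overlap in this share, whose sum also holds Eif2ak1 and Eif2ak3, both lower in the libraries labelled KO. How often such shares separate the groups over all genes was not examined.

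Eif2ak3 (ENSMUSG00000031668, chr6:70844515-70905245, plus strand) encodes PERK, the kinase of the endoplasmic reticulum that senses misfolded protein. It was at 4.40 and 3.87 RPKM in WT (16 and 11 reads) and at 3.84 and 2.88 RPKM in the libraries labelled KO (21 and 14 reads). The lowest WT value and the highest KO value nearly met. The log2 difference was -0.24 ± 0.37 (SE, 95% interval -1.16 to 0.68, limma adjusted p = 0.841). It turned to 0.24 scaled to the total of reads, where the median of all genes moved by 0.47. With 1 library left out the log2 difference of Eif2ak3 ran from -0.40 to -0.084, the smallest without KO replicate 2.

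Eif2ak4 (ENSMUSG00000005102, chr2:118388618-118475234, plus strand) encodes GCN2, the kinase that senses uncharged tRNA. It was at 2.22 and 2.85 RPKM in WT (10 and 10 reads) and at 2.66 and 1.99 RPKM in the libraries labelled KO (18 and 12 reads). The groups overlapped, with the highest and the lowest value in different groups. The log2 difference was -0.09 ± 0.42 (SE, 95% interval -1.13 to 0.95, limma adjusted p = 0.957). Scaled to the total of reads it turned to 0.35, where the median of all genes moved by 0.47. Summed over the 4 kinases, the level was 19.8 and 14.6 RPKM in WT and 23.7 and 16.4 RPKM in the libraries labelled KO, and the groups overlapped.

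The phosphatase subunits differed in level and in how their groups lay. Ppp1r15a (ENSMUSG00000040435, chr7:45522916-45526268, minus strand) encodes GADD34, the stress-induced subunit. It was at 37.8 and 30.4 RPKM in WT replicates 1 and 2 (67 and 42 reads) and at 25.5 and 18.1 RPKM in the libraries labelled KO replicates 1 and 2 (68 and 43 reads). Both libraries labelled KO were below both WT libraries, by 1.56-fold between the means. The log2 difference was -0.63 ± 0.42 (SE, 95% interval -1.66 to 0.40, limma adjusted p = 0.697), the most negative of the 10 genes in this fit. Scaled to the total of reads instead, it was -0.039, where the median of all genes moved by 0.47. With trends on GC content and coding length removed it was -0.43, and Eif2ak1 was then lower at -0.68. With 1 library left out the log2 difference of Ppp1r15a ran from -0.87 without KO replicate 1 to -0.40 without KO replicate 2.

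Ppp1r15b (ENSMUSG00000046062, chr1:133131143-133139783, plus strand) encodes CReP, the constitutive subunit. It was at 12.8 and 6.83 RPKM in WT (43 and 18 reads) and at 12.02 and 7.97 RPKM in the libraries labelled KO (61 and 36 reads). The KO values lay inside the WT range, and the log2 difference was 0.06 ± 0.46 (SE, 95% interval -1.07 to 1.19, limma adjusted p = 0.973). It was 0.61 scaled to the total of reads and -0.046 scaled to protein-coding reads. The ratio of Ppp1r15a to Ppp1r15b, taken within a library and per gene length, was 2.97 and 4.44 in WT, against 2.12 and 2.28 in the libraries labelled KO. Both ratios labelled KO were below both WT ratios, as was already so for the level of Ppp1r15a. How often such ratios separate the groups over all genes was not examined. The summed level of both subunits was 50.6 and 37.2 RPKM in WT and 37.5 and 26.1 RPKM in the libraries labelled KO, and the groups overlapped.

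Atf4 (ENSMUSG00000042406, chr15:80255184-80257541, plus strand) encodes the main transcription factor of the response. It was at 80.9 and 82.8 RPKM in WT replicates 1 and 2 (115 and 92 reads) and at 94.9 and 102.9 RPKM in the libraries labelled KO replicates 1 and 2 (203 and 196 reads). Replicates lay within 1.08-fold of each other, the closest of the 10 genes when both groups are considered, and both libraries labelled KO were above both WT libraries. The group means, 81.9 ± 1.35 and 98.9 ± 5.65 RPKM (SD, n = 2 each), differed 1.21-fold. The log2 difference was 0.27 ± 0.43 (SE, 95% interval -0.79 to 1.33, limma adjusted p = 0.848). It was 0.88 scaled to the total of reads, where the median of all genes moved by 0.47, 0.47 after quantile normalization and 0.14 with trends on GC content and coding length removed, and no adjusted p passed the threshold. These reads would include any footprints on the 3 upstream frames shown above, which the per-gene level does not separate from the ATF4 frame.

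Ddit3 (ENSMUSG00000025408, chr10:127290774-127296288, plus strand) encodes CHOP, which promotes death under long stress. It was at 3.87 and 2.48 RPKM in WT (4 and 2 reads) and at 2.57 and 5.06 RPKM in the libraries labelled KO (4 and 7 reads). The groups overlapped, WT replicate 2 was under the floor of 3 reads used here, and a change was not detectable at this depth (log2 difference 0.18 ± 0.45, SE, 95% interval -0.93 to 1.29, limma adjusted p = 0.910). It was 0.64 with libraries scaled to the total of reads. The floor and the read numbers cover counting error only, since the reads carry no molecular identifiers. The other Ddit3 row (ENSMUSG00000116429, chr10:127290829-127293753) is a model of 105 bases that lies at bases 56 to 160 of the Ddit3 mRNA, the upstream frame whose start is shown above. It was listed at 0 reads in all 4 libraries. A read there matches both models, and how such reads were counted was not given in the sources used here. Exons of Ddit3 also share 68 bases with Mars on the other strand, which had 193 reads over the 4 libraries.

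Asns had the most positive log2 difference of the 10 genes in the fit reported here. Under some alternatives Eif2ak2 was higher, such as a pseudocount of 0.1 (0.94 against 0.91) and without WT replicate 1 (1.40 against 0.65). Asns (ENSMUSG00000029752, chr6:7675169-7693254, minus strand) encodes asparagine synthetase, a standard target of ATF4 when amino acids are short. It was at 19.4 and 27.2 RPKM in WT replicates 1 and 2 (32 and 35 reads) and at 39.9 and 46.6 RPKM in the libraries labelled KO replicates 1 and 2 (99 and 103 reads). Both libraries labelled KO were above both WT libraries, and the mean was 1.86-fold that of WT (43.3 ± 4.75 against 23.3 ± 5.48 RPKM, SD, n = 2 each). The log2 difference was 0.88 ± 0.42 (SE, 95% interval -0.15 to 1.91, limma unadjusted p = 0.0811, adjusted p = 0.676), at percentile 89.4 of all genes tested. The interval runs from 0.902-fold to 3.76-fold on the scale of RPKM + 1. Leaving out WT replicate 2 gave 1.11, with an unadjusted p of 0.0333 and an adjusted p of 0.342 (limma). The other libraries left out gave 0.65 (without WT replicate 1) to 0.99 (without KO replicate 1), and removal of trends on GC content and coding length gave 0.66, with unadjusted p-values above the threshold. Scaled to the total of reads it was 1.48 with an unadjusted p of 0.00835 and an adjusted p of 0.289 (limma). Within a library, Asns stood at 0.24 and 0.328 of the Atf4 RPKM in WT and at 0.42 and 0.453 in the libraries labelled KO.

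Trib3 (ENSMUSG00000032715, chr2:152337422-152344032, minus strand) encodes a pseudokinase that is induced by ATF4 and CHOP and restrains ATF4. It was at 11.7 and 18.0 RPKM in WT (15 and 18 reads) and at 10.9 and 23.9 RPKM in the libraries labelled KO (21 and 41 reads). The lowest and the highest value were both in the libraries labelled KO, and the log2 difference was 0.15 ± 0.51 (SE, 95% interval -1.11 to 1.41, limma adjusted p = 0.936). Scaled to the total of reads it was 0.73 and the groups did not overlap, and with trends on GC content and coding length removed it was 0.48. The difference between Asns and Trib3 was not tested.

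**Figure D3:**
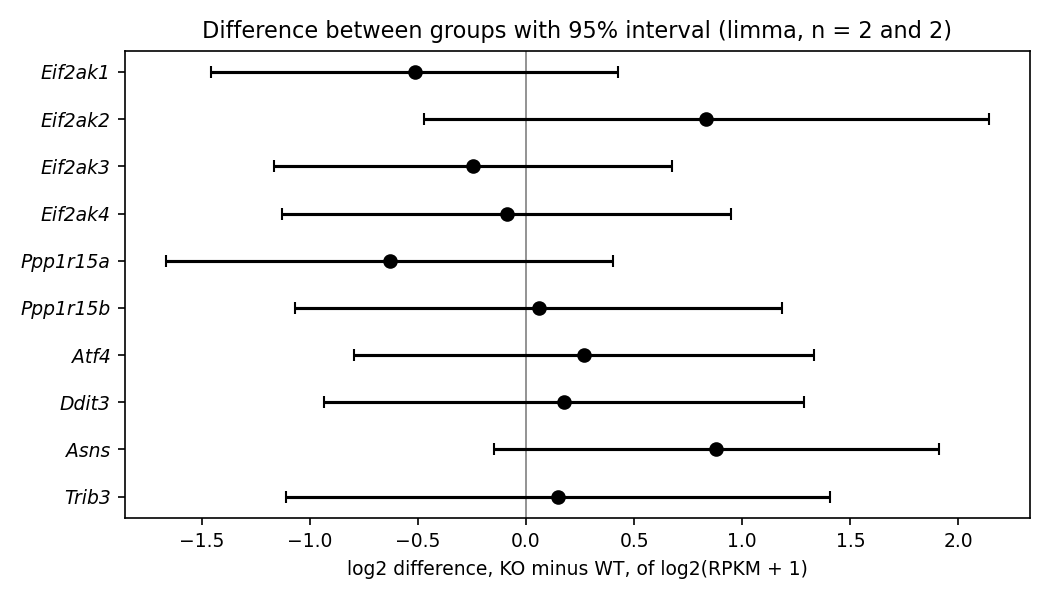
Log2 difference of each gene between the groups (KO minus WT, on log2(RPKM + 1)); points are limma estimates from 2 libraries per group and bars are 95% intervals. All 10 intervals include 0, and Asns (0.88, from -0.15 to 1.91) and Ppp1r15a (-0.63, from -1.66 to 0.40) lie at the ends.

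The promoters were searched for the C/EBP-ATF response element, the DNA word bound by ATF4 and CHOP with C/EBP partners, because it is the sequence through which the targets of the response are known to be reached. The letters TGATGNAAN (N is any base), on either strand, were looked for in RefSeq promoters of the GRCm38.p6 assembly, from 250 bases before to 50 after each start. They were found in 1299 of 32851 promoters (3.95%). The genes above had 10 promoters of 9 genes in that table, Ppp1r15b being the gene without an entry, and 2 held a match, those of Asns and Trib3. The Asns match began 23 bases before the RefSeq start, which is 22 bases inside the gene as the deposited table places it. The Trib3 match lay on the opposite strand and began 13 bases after the RefSeq start, which is 15 bases upstream of the gene in the deposited table. Each is shown 5′ to 3′ on the strand of its gene, with the match in capitals and the minus strand meant in both.
Asns, chr6:7693213-7693242: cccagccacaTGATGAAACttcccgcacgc
Trib3, chr2:152344028-152344057: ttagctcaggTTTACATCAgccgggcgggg
A match describes these letters in this window and is not a measured site.

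Across genes, the level per gene length averaged over the 4 libraries was 90.4 RPKM for Atf4, followed by Asns at 33.3, Ppp1r15a at 28.0, Trib3 at 16.1, Ppp1r15b at 9.89 and Eif2ak2 at 9.24 RPKM. Eif2ak3 followed at 3.75, Ddit3 at 3.50, Eif2ak1 at 3.22 and Eif2ak4 at 2.43 RPKM. Only the first step, from Atf4 to Asns, was free of overlap between the ranges over the 4 libraries; every other neighbouring pair overlapped. Deposited lengths are the union of all exons of a gene and exceed its coding sequence, 2358 against 1047 bases for Atf4 and 5113 against 1545 bases for Eif2ak2. With the same reads set, as an alternative added after seeing the data, per kilobase of coding sequence, the order kept Atf4, Asns, Ppp1r15a and Trib3 at the top, at 204, 54.1, 41.7 and 32.3. Eif2ak2 followed at 30.6 and Ppp1r15b at 26.5, then Ddit3 at 11.9, Eif2ak1 at 9.85, Eif2ak3 at 6.76 and Eif2ak4 at 3.67. On that scale the ranges were free of overlap after Atf4, after Ppp1r15b and after Eif2ak3. In both orders Eif2ak4, the gene with the longest coding sequence of the 10 at 4944 bases, was last.

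Runs of prolines, stretches at which eIF5A is known to act, were counted in the coding sequences. The longest run was 3 prolines in Trib3, Ppp1r15b and Eif2ak4 and 2 or fewer in the other 7 genes, while 25.7% of 9891 tested coding genes had a run of 3 or more. The count of 3 in 10 genes is near that share, and nothing is read from it. The GC content of the coding sequence ran from 41.4% in Eif2ak2 to 60.6% in Trib3, around a median of 53.2% over the tested coding genes.

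Other genes of the pathway were taken from 6 lists, 68 genes in all, of which 65 passed the filter on low levels. None was called: 0 of 65 had an adjusted p-value under 0.05 (limma), with 0.665 the lowest, and 3 had an unadjusted p-value under 0.05, all higher in the libraries labelled KO, where 2.86% of all genes tested passed in that direction. Groups were without overlap, higher in the libraries labelled KO, for 20 of 65 genes (20.1% of all genes tested) and lower for 7 (20.3%). The median log2 difference was 0.17, against 0.00026 for all genes. These counts describe lists that were put together with results of these libraries known. The 3 genes under the filter were Cth, with 3, 0, 1 and 0 reads in WT replicates 1 and 2 and KO replicates 1 and 2, Fgf21 with 1, 0, 0 and 1, and Stc2 with 1, 1, 1 and 3.

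The substrate of the kinases and its exchange factor were covered by 9 genes of eIF2 and eIF2B subunits, all tested. Groups were without overlap, higher in the libraries labelled KO, for 2 of the 9, Eif2s1 and Eif2b1, and lower for none (20.1% and 20.3% of all genes tested), and the median log2 difference was 0.37, which was 0.13 with trends on GC content and coding length removed and 0.53 with a pseudocount of 0.1. Eif2b1, the α subunit of eIF2B, was at 7.07 and 5.76 RPKM in WT and at 12.8 and 13.0 RPKM in the libraries labelled KO, from 11, 7, 30 and 27 reads. All libraries labelled KO were above WT, with a log2 difference of 0.91 ± 0.37 (SE, limma unadjusted p = 0.0479, adjusted p = 0.672). Eif2s2, the β subunit of eIF2, had the highest level of the list at 37.1 and 18.2 RPKM in WT and 39.5 and 23.5 RPKM in the libraries labelled KO, which overlapped. Eif2b2, the β subunit of eIF2B, was next at 22.0 and 19.1 RPKM in WT and 18.7 and 25.0 RPKM in the libraries labelled KO, also with overlap.

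Among 10 genes of kinase activators and inhibitors and of the catalytic subunits of protein phosphatase 1, all tested, none had an unadjusted p-value under 0.05. The groups were without overlap, higher in the libraries labelled KO, for 4, namely Dnajc3, Dele1, Ppp1ca and Ppp1cb, and lower for none, where 20.1% and 20.3% of all genes tested were. The median log2 difference was 0.19, but -0.078 without WT replicate 1 and -0.0069 with trends on GC content and coding length removed. Ppp1ca, a catalytic subunit that PPP1R15A and PPP1R15B direct to eIF2α, was at 49.4 and 50.5 RPKM in WT and at 61.7 and 90.9 RPKM in the libraries labelled KO (log2 difference 0.58 ± 0.44, SE). Ppp1cb, another such subunit, was at 10.2 and 14.8 RPKM in WT and 15.6 and 14.9 RPKM in the libraries labelled KO (0.29 ± 0.39).

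The 6 bZIP genes, transcription factors that pair with ATF4 or CHOP or share their sites, had no common direction, with 2 positive and 4 negative log2 differences. Groups were without overlap, higher in the libraries labelled KO, for Cebpg and Nfe2l2 and lower for Atf3 and Jdp2 (20.1% and 20.3% of all genes tested), none had an unadjusted p-value under 0.05, and the median log2 difference was -0.25, from -0.38 without KO replicate 2 to -0.087 without KO replicate 1, and -0.12 with trends on GC content and coding length removed. Cebpb, which encodes a C/EBP partner of ATF4, had the highest level at 344 and 140 RPKM in WT and 47.7 and 165 RPKM in the libraries labelled KO (log2 difference -1.30 ± 0.78, SE). The groups overlapped, with the KO replicates further apart than those of any of the 10 genes of the response. Atf5, an activating factor translated through upstream frames as Atf4 is, was at 61.6 and 50.1 RPKM in WT and 37.1 and 63.4 RPKM in the libraries labelled KO, with overlap.

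The list of 20 genes of amino acid synthesis and transport that ATF4 is known to activate held the other genes with low unadjusted p-values. Of the 19 tested, 8 were without overlap and higher in the libraries labelled KO, 0 were without overlap and lower, and 11 overlapped, where 20.1% and 20.3% of all genes tested were higher and lower. The median log2 difference was 0.31 and ran from 0.14 to 0.71 with 1 library left out, the lowest without WT replicate 1 and the highest without WT replicate 2. Shmt2, the mitochondrial serine hydroxymethyltransferase, was at 9.60 and 11.6 RPKM in WT and at 36.9 and 21.1 RPKM in the libraries labelled KO, from 18, 17, 104 and 53 reads. Both libraries labelled KO were above WT, with a log2 difference of 1.32 ± 0.44 (SE, limma unadjusted p = 0.025, adjusted p = 0.665). Psat1, an enzyme of serine synthesis, was at 5.85 and 13.0 RPKM in WT and at 19.2 and 23.6 RPKM in the libraries labelled KO, from 15, 26, 74 and 81 reads. Its groups did not overlap either, and the log2 difference was 1.19 ± 0.48 (SE, limma unadjusted p = 0.0498, adjusted p = 0.672). The most abundant genes of the list were transporters. Slc3a2, the shared chain of several amino acid exchangers, was at 65.8 and 108 RPKM in WT and 136 and 134 RPKM in the libraries labelled KO (0.67 ± 0.48). Slc38a2, which imports neutral amino acids, was at 23.5 and 37.0 RPKM in WT and 47.8 and 38.9 RPKM in the libraries labelled KO (0.53 ± 0.44). The groups were without overlap for both transporters.

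In the list of 14 other targets of ATF4 or CHOP, 12 were tested and none had an unadjusted p-value under 0.05. Of the 12, 4 had positive and 8 negative log2 differences. Without overlap, 1 gene (Herpud1) was higher in the libraries labelled KO and 2 (Ddit4 and Bbc3) were lower, against 20.1% and 20.3% of all genes tested, and 9 overlapped. The median log2 difference was -0.13, which was 0.031 with trends on GC content and coding length removed and -0.34 without KO replicate 2. Gdf15, which encodes a secreted stress hormone, was at 217 and 155 RPKM in WT and at 163 and 156 RPKM in the libraries labelled KO. The KO values lay inside the WT range. Ddit4, an inhibitor of mTORC1, was at 88.8 and 103 RPKM in WT and at 63.5 and 83.9 RPKM in the libraries labelled KO (-0.38 ± 0.45), without overlap.

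The ATF6 and IRE1 branches of the unfolded protein response, which run beside PERK, were covered by 9 genes, all tested. Groups were without overlap and higher in the libraries labelled KO for 3 (Mbtps2, Xbp1 and Dnajb9), lower for 3 (Atf6b, Ern1 and Sdf2l1) and overlapped for 3, against 20.1% higher and 20.3% lower of all genes tested. The median log2 difference was -0.28, but 0.094 without WT replicate 1. Xbp1, whose mRNA is spliced by IRE1, was at 28.1 and 46.4 RPKM in WT and at 55.3 and 54.9 RPKM in the libraries labelled KO (0.60 ± 0.45). Sdf2l1, an endoplasmic reticulum protein of folding, was at 24.0 and 19.2 RPKM in WT and at 12.9 and 7.82 RPKM in the libraries labelled KO (-1.02 ± 0.43), with an unadjusted p of 0.0552 (limma, adjusted p = 0.675).

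**Figure D4:**
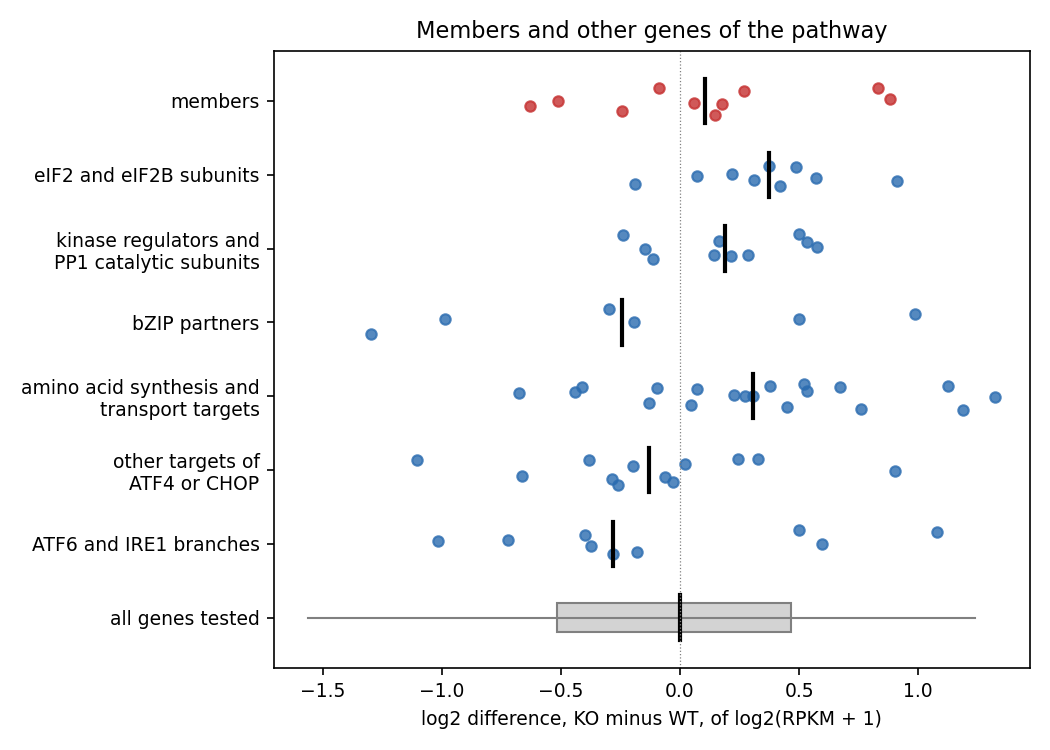
Log2 differences (KO minus WT, on log2(RPKM + 1)) of the 10 genes (red) and of the tested genes of 6 pathway lists (blue), with the median of each as a black bar; the grey box gives the middle 50% of all 11363 genes tested, from -0.52 to 0.47, and its line the 5th to 95th percentile. The medians of the lists run from -0.28 to 0.37, inside the grey box.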

How the data were processed

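Ribo-seq of 4 libraries was used, grouped by the labels. Per the labels and the study's methods, rRNA and tRNA reads were removed, TopHat2 aligned the reads and HTSeq counted them over Ensembl genes (GRCm38) of the release that the methods name; the versions of both tools and the settings for strand, overlaps and multiple matches were not given in the sources used here. The deposited values were RPKM. Dividing by what 1 read is worth gave whole reads for 100% of values (tolerance 0.01); 3 reads at 1 kb equal 3.31 to 6.37 RPKM.

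Tests used limma 3.58.1 (R 4.3.3; lmFit, eBayes with a mean-variance trend) on log2(RPKM + 1) of genes whose RPKM averaged 1 or more, two-sided, Benjamini-Hochberg over 11363 genes, threshold 0.05. Log2 differences on this scale understate changes of low genes. Scripts were tested on simulated data. Members, lists and tests were chosen with earlier results of these data known. Named were all members, Eif5a and, per list, the 2 genes of highest mean RPKM and any with p under 0.05; genes named only as without overlap, markers and overlapping genes were named after values were seen. Transcripts were from GENCODE vM21 (99.7% of identifiers matched) and promoters from RefSeq. Alternatives were another pseudocount, filters, gene set, variance priors, limma voom on recovered reads, scalings, quantile normalization, a replicate block, removal of GC and length trends, and each library left out.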

Additional observations from a re-analysis of the deposited data

How the results depend on the processing

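None of the 10 genes was called under any alternative that was run: adjusted p-values (limma) ran from 0.289 to 0.992 over 166 values, and the direction was kept in all but 11. In fits of all 4 libraries, an unadjusted p under 0.05 came up for Asns alone, scaled to total reads (limma, 0.00835). Under that scaling 1854 of 11363 genes passed the unadjusted threshold, against 832 with the deposited scaling. Scaling to total reads, chosen as an alternative for the lists after seeing the data, moved the median of all genes by 0.47. Under it Eif2ak3 was at 0.24 and Eif2ak4 at 0.35, and the list medians were 0.87 (eIF2 and eIF2B), 0.74 (kinase regulators and phosphatase 1), 0.36 (bZIP), 0.79 (amino acid targets), 0.45 (other targets) and 0.21 (ATF6 and IRE1). Relative to that shift Eif2ak3 and Eif2ak4 stayed below the typical gene. No gene of the response was then without overlap and lower, while Eif2ak2, Eif2ak4, Atf4, Asns and Trib3 were higher, 5 of 10 where 49.3% of all genes had groups that did not overlap. Scaled to protein-coding reads, Ppp1r15b was at -0.046. The list medians were then 0.38 (eIF2 and eIF2B), 0.096 (kinase regulators), -0.36 (bZIP), 0.25 (amino acid targets), -0.25 (other targets) and -0.42 (ATF6 and IRE1). The eIF2 and eIF2B median was 0.53 with a pseudocount of 0.1, 0.31 with the filter raised to 5 RPKM and 0.13 with GC and length trends removed. That of the bZIP list was -0.30 and -0.12 under the last 2, and that of the amino acid targets was 0.52 with the raised filter. With GC and length trends removed the medians of the kinase regulators (-0.0069) and the other targets (0.031) changed sign. Causes were not tested.

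Leaving out 1 library at a time gave ranges of -0.23 to 0.056 for Eif2ak4, -0.35 to 0.46 for Ppp1r15b, -0.20 to 0.56 for Ddit3 and -0.38 to 0.68 for Trib3, so their directions rest on single libraries: Eif2ak4 turned without WT replicate 2 or KO replicate 2, Ppp1r15b without WT replicate 2 or KO replicate 1, Ddit3 without WT replicate 2 or KO replicate 2, and Trib3 without WT replicate 1 or KO replicate 2. List medians ranged from 0.29 to 0.38 (eIF2 and eIF2B), -0.078 to 0.56 (kinase regulators), -0.38 to -0.087 (bZIP), 0.14 to 0.71 (amino acid targets), -0.34 to -0.069 (other targets) and -0.46 to 0.094 (ATF6 and IRE1). In these fits the lone library is assumed to vary like the others.

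Same-numbered libraries share only a number: their deviations from the group means correlated at 0.0716 over 9877 protein-coding genes. With the replicate block 0 of the 10 genes were called, the lowest adjusted p was 0.667 (Asns and Eif2ak2), and 0 of 11363 genes were called, with 827 at an unadjusted p under 0.05, against 12 and 832 without it. Over all settings 0 to 74 genes were called, the most by voom. On the recovered reads only limma voom was run, and no test that models the counts themselves. At a mean RPKM of at least 5, Eif2ak1, Eif2ak3, Eif2ak4 and Ddit3 have no value. Depth limits Ddit3 most, with 17 reads in all.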
